A study of Mus musculus with 15 samples.

Results

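The 5 genes described here code for the inhibitor of DNA binding proteins Id1, Id2 and Id3 and for the inhibitory SMAD proteins Smad6 and Smad7. They were taken by gene symbol, and each symbol matched 1 row among the 34245 genes of a count table on macrophage differentiation and 1 row among the 25965 genes of a separate table on interleukin 4 (IL4). The set was chosen for the rise of Id1 in mature macrophages, so its levels there are a description and carry no test. ID proteins have the helix-loop-helix dimerization fold but lack the basic region that contacts DNA, and they hold E proteins and other basic helix-loop-helix (bHLH) factors away from their sites. Bone morphogenetic proteins (BMPs) and transforming growth factor beta (TGF-beta) act through paired type I and type II receptors, which phosphorylate receptor SMADs that enter the nucleus with Smad4. Id1, Id2 and Id3 are well-known targets of the BMP branch in many cell types, and Smad6 and Smad7 are induced by the same signals and limit them at the receptors.

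All cells came from the bone marrow of male C57BL/6 mice of 8 to 10 weeks, and each of 5 groups held 3 libraries that their titles assign to mouse 1, 2 and 3. The cultures held CSF-1 (colony stimulating factor 1), which drives marrow cells to become macrophages, and fetal calf serum (FCS). Precursors were the non-adherent cells after 2 days in 0.6 ng/ml CSF-1 and 15% FCS. Immature macrophages had a further 4 days in 12 ng/ml CSF-1 and 10% FCS. Mature macrophages had 1 day in 0.6 ng/ml CSF-1 with 15% FCS, then 2 days in 12 ng/ml and 7 days in 120 ng/ml with 10% FCS. The unstimulated and IL4 groups were mature macrophages kept for another 48 h in 120 ng/ml CSF-1 and 10% FCS, without or with 20 ng/ml IL4, a cytokine that drives alternative activation. The stages thus differ in CSF-1 dose and in days of culture, and precursors from the later stages also in serum, and these cannot be told apart.

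The differentiation libraries held 7897769 to 22167294 reads and the IL4 libraries 2408531 to 4214266, so 1 read was worth at most 0.128 and 0.411 CPM respectively (CPM are read counts relative to the library total, with totals scaled by TMM). The 8 macrophage markers (Csf1r and Lyz2 among them) summed to 7128 to 9468 CPM in precursors, 22128 to 44026 in immature and 39675 to 66395 in mature macrophages. Most of each sum was Lyz2, with means of 6794, 21002 and 43760 CPM. From immature to mature macrophages 1 of the 8 was higher at an adjusted p under 0.05 (edgeR) and 7 did not pass. Csf1r, among those 7, had means of 2867 CPM in immature and 1876 CPM in mature macrophages. Precursors also held neutrophil markers (11168 to 16746 CPM summed over 9 genes) and B cell markers (260.2 to 385.1 CPM over 7 genes), so that group was a mixture of marrow cells. In the IL4 table the 12 mitochondrial transcripts summed to at most 0.234 CPM, against 616.1 CPM or more in every differentiation library, and levels are compared only within a table. Since all libraries are bulk, fewer cells that express a gene and less RNA per cell cannot be told apart.

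The start regions of Smad6 and Id2 are printed because SMAD complexes recognise short motifs in such regions and both genes moved between groups. The set of promoter sequences used here, built on RefSeq (GRCm38.p6), held an entry for 3 of the 5 genes, Id2, Id3 and Smad6. Id3 moved between groups as well, but its entry held 0 bases before the first annotated exon and is not printed. The searched motifs, on both strands, were the SMAD palindrome GTCTAGAC, the GC-rich BMP SMAD box GGCGCC and the joined BMP element GGCGCC, then NNNNN, then GTCT, which contains the box. Capitals mark the match, letters run 5′ to 3′ on the minus strand, and the stretches are chr9:64022050-64022309 for Smad6 and chr12:25096244-25096342 for Id2. The Id2 stretch lies before the start of the shorter Id2 span used in the IL4 table and inside the longer span of the differentiation table.
Smad6: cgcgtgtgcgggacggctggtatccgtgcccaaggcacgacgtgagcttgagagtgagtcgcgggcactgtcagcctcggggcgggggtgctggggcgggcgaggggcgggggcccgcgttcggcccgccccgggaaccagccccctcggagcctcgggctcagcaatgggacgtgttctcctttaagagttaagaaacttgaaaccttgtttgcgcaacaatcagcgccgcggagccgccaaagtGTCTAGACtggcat
Id2: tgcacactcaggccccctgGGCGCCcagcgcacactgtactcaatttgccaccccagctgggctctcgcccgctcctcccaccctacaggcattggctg
The Smad6 palindrome began 4 bases before the RefSeq gene start, and 70 of 32851 promoters of the same length (0.213%) held one. The Id2 box began 231 bases before the gene start, and it is a common motif, present in 3898 promoters (11.9%). The joined element was in 24 promoters (0.0731%) and in none of the 3. Each window held 250 bases before and 50 bases after the RefSeq start. Sites farther away, and those of Id1 and Smad7, were not searched, so the absence says nothing about them. Id3 had no match to any of the 3 motifs in its window (136143572 to 136143871 on chromosome 4). That window began inside an exon and after the Id3 start of both tables (136143497), so no bases before that start were searched. A match is a description of the letters, and no binding was measured.

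Id1 lies on chromosome 2 (152736251 to 152737410, plus strand, ENSMUSG00000042745), Id2 on chromosome 12 (25093799 to 25097140, minus, ENSMUSG00000020644) and Id3 on chromosome 4 (136143497 to 136145755, plus, ENSMUSG00000007872). Smad6 lies on chromosome 9 (63953076 to 64022059, minus, ENSMUSG00000036867) and Smad7 on chromosome 18 (75367529 to 75395935, plus, ENSMUSG00000025880), all as the differentiation table gives them. In GENCODE M21, on GRCm38, no other gene overlapped any of the 5. Of the 31-base words in the exons of Id2, 1.60% also occurred in the gene model Gm6175, and none of the words of the other 4 genes occurred in another gene. The IL4 table gives Id2 a shorter span (25093801 to 25096092).

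All 5 genes were lowest in immature macrophages. In each of them, every immature library lay below every precursor library and every mature library, a pattern found in 720 of the 13359 genes tested (5.39%). Part of that pattern, the difference between immature and mature macrophages, is what the set was chosen on. The depth of the low point differed between the genes: Id1 was nearly absent from immature macrophages, Id3 was 61.1-fold below its precursor level, and Id2, Smad6 and Smad7 were 5.84-fold, 6.63-fold and 9.64-fold below theirs.

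Id1, the gene that led to the choice of this set, was measured at 25.4, 29.2 and 19.9 CPM in the precursor libraries of mouse 1, 2 and 3. The immature libraries held 1, 0 and 1 reads of Id1, or 0.0788, 0 and 0.128 CPM. For the library with 0 reads, 3 reads would have been 0.307 CPM, which is the upper limit that a count of 0 allows. The mature libraries were at 7.36, 107.7 and 27.9 CPM. The 3 mature libraries thus spanned a range wider than the whole of the precursor group and overlapped it, with mouse 2 high and mouse 1 low. Pooled over libraries, Id1 was 392-fold lower in immature macrophages than in precursors, with an exact 95% counting interval of 108 to 3243. Leaving out 1 library at a time gave 266 (without immature library 2) to 582 (without immature library 3). The interval covers counting error only and rests on 2 immature reads.

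**Figure D1:**
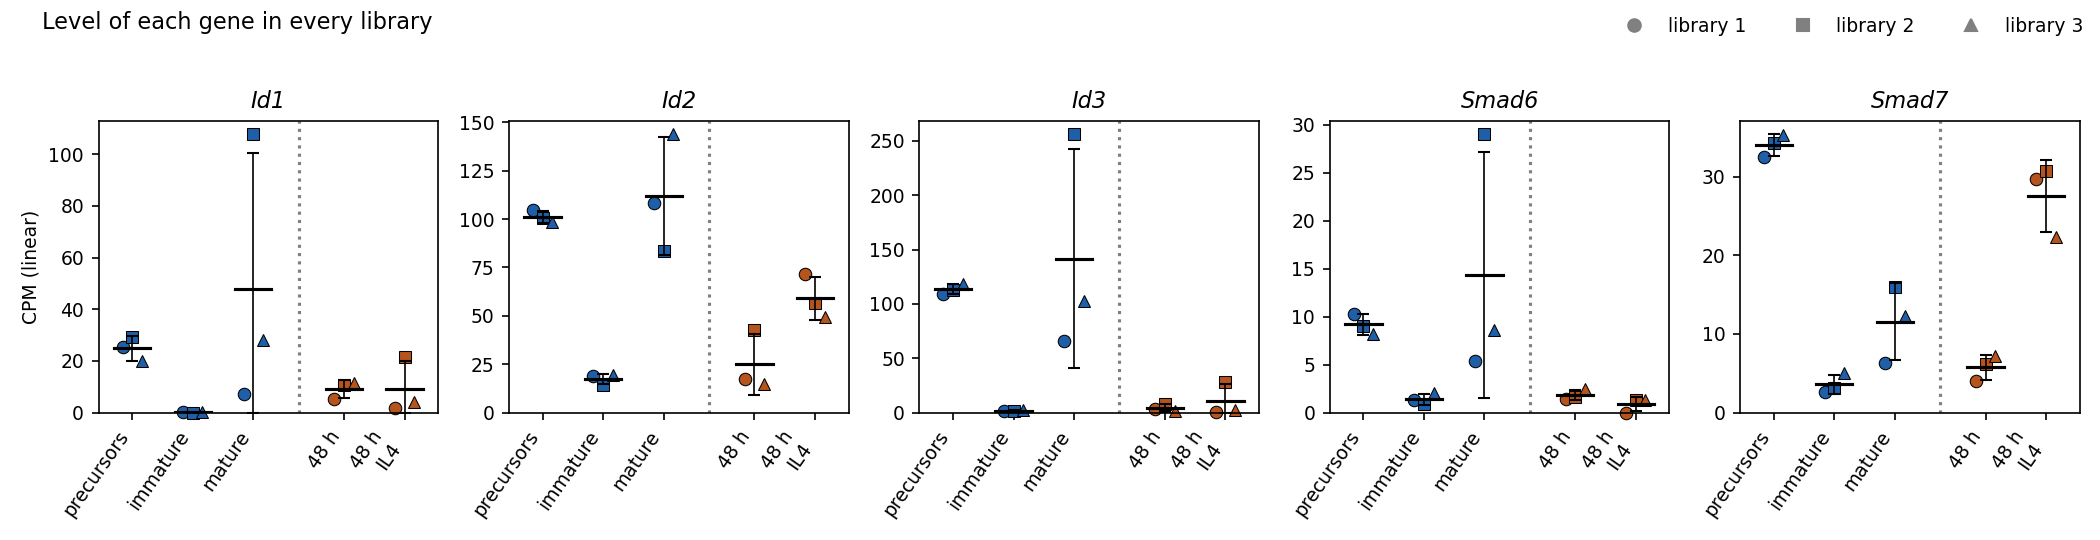
Level (CPM, linear axis from 0) of the 5 genes in each of 15 libraries. Symbols mark libraries 1 to 3, the thick bar is the mean and the thin bar the SD of 3 libraries, cut at 0. The dotted line separates the 2 tables, which were made separately. Immature macrophages lie below both neighbouring stages for every gene, and mature library 2 stands highest for Id1, Id3, Smad6 and Smad7.

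Id3, which like Id1 is strongly responsive to BMPs in many cells, was tightly grouped in precursors at 109.6, 113.1 and 118.2 CPM. It fell to 1.89, 1.64 and 2.04 CPM in the immature libraries, from 24, 16 and 16 reads. In the fit across all genes this was a log2 fold change of -5.93 ± 0.51 (SE, n = 3 libraries a group), or 61.1-fold lower (edgeR quasi-likelihood test, Benjamini-Hochberg adjusted p = 9.36e-06). Mature macrophages held 65.9, 256.0 and 103.0 CPM, with mouse 2 high again. The mature libraries fell on both sides of the precursor level.

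Id2, the ID protein best known for its roles in dendritic and innate lymphoid cells, changed least among the 3 Id genes. It stood at 104.6, 100.8 and 98.3 CPM in precursors and at 18.7, 14.1 and 19.3 CPM in immature macrophages. The log2 fold change was -2.54 ± 0.23, or 5.84-fold lower (edgeR, adjusted p = 1.21e-05). Mature libraries held 108.2, 83.5 and 144.2 CPM. Here mouse 2 was the lowest, the reverse of its place for Id1 and Id3.

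Smad6, which acts mainly on BMP receptors, was the least abundant of the set in precursors at 10.3, 9.07 and 8.18 CPM. The immature libraries held 16, 9 and 16 reads (1.26, 0.921 and 2.04 CPM), a log2 fold change of -2.73 ± 0.61 (edgeR, adjusted p = 0.00379). Mature libraries reached 5.42, 29.0 and 8.64 CPM. As for Id1, mouse 2 was far above the other mature libraries, which lay near or below the precursor level.

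Smad7, which blocks both the TGF-beta and the BMP branch by recruiting ubiquitin ligases to the receptors, was at 32.5, 34.3 and 35.4 CPM in precursors. It fell to 2.68, 3.07 and 4.98 CPM in immature macrophages, a log2 fold change of -3.27 ± 0.36, or 9.64-fold (edgeR, adjusted p = 4.99e-05). Mature libraries stood at 6.31, 16.0 and 12.3 CPM. Smad7 was the only 1 of the 5 whose mature libraries all remained below its precursor libraries.

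The fall into the immature stage was thus called for Id2, Id3, Smad6 and Smad7, against a background in which 26.6% of the 13359 genes tested were called lower, 22.5% higher and 49.2% in either direction. All 5 genes were lower without overlap, as were 35.6% of all genes tested. Id1 was part of the same fit (-8.36 ± 1.26) and is given here as a description, since its value rests on 2 reads and on the libraries used to choose the set. The immature libraries are those against which the rise of Id1 was seen, so the fall of the other genes is not independent of that choice. In the authors' deposited table for this comparison, which lists 7468 genes, all 5 appear. The FDR there was 3.58e-24 for Id2, 1.69e-12 for Smad6 and 1.11e-25 for Smad7, and it was listed as 0 for Id1 and Id3. These FDRs come from the same libraries and are no separate evidence, and that of Id1 rests on the same 2 reads.

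From immature to mature macrophages, the log2 fold change was 2.69 ± 0.23 for Id2, 6.25 ± 0.51 for Id3, 3.36 ± 0.61 for Smad6 and 1.70 ± 0.35 for Smad7, given as a description. In this contrast 7.52% of all genes were called higher, 7.38% lower and 16.8% were higher without overlap. Set against precursors, mature macrophages differed by 0.93 ± 0.68 (Id1), 0.15 ± 0.21 (Id2), 0.32 ± 0.38 (Id3) and 0.63 ± 0.52 (Smad6), with overlapping libraries. Without mature library 2 the Id1 difference became -0.49, that of Id3 -0.42 and that of Smad6 -0.38. Smad7 was -1.57 ± 0.33 and did not overlap, as was the case for 34.4% of all genes in that direction.

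**Figure D2:**
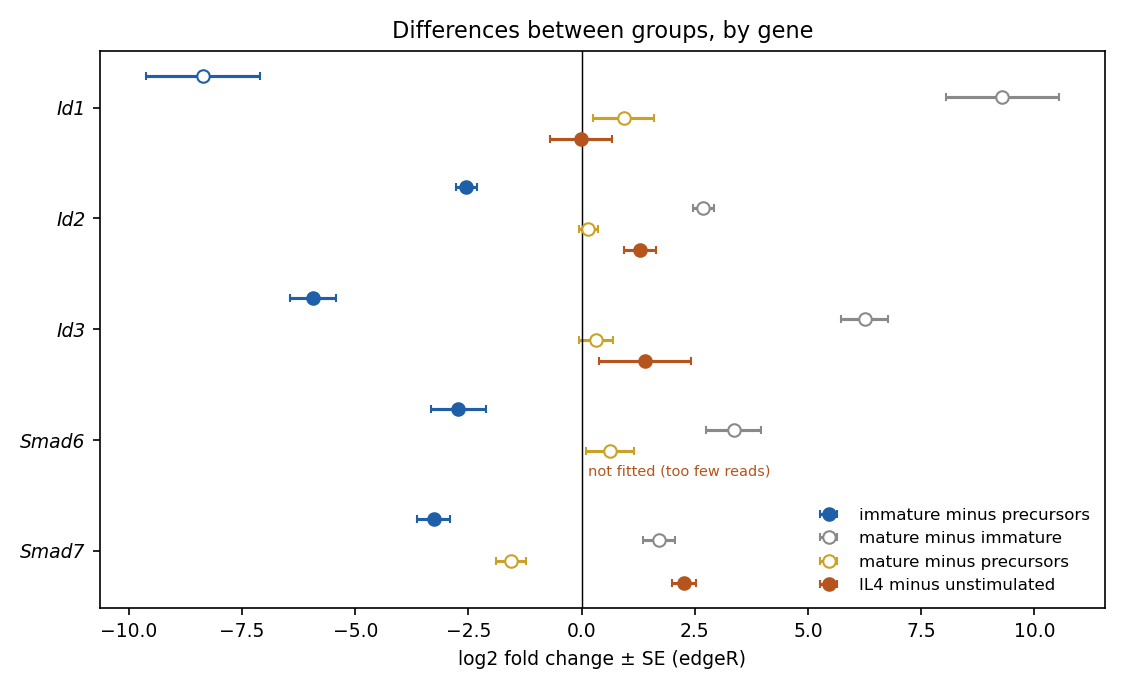
Log2 fold change with its SE for each gene in 4 comparisons, from edgeR fits. Filled points were tested; open points are descriptions, because the set was chosen on the mature libraries, and those of Id1 against the immature stage rest on 2 reads. The low point of the immature stage shows as points far left (immature minus precursors) and far right (mature minus immature), and IL4 sets Smad7 and Id2 to the right of 0.

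Per kilobase of exon, which allows levels of different genes to be compared, the order changed with the stage. In precursors, Id3 led with 63.4 ± 2.41 CPM per kb (SD, n = 3), followed by Id2 (41.5 ± 1.30), Id1 (21.4 ± 4.05), Smad7 (7.53 ± 0.320) and Smad6 (2.87 ± 0.337), and no neighbours in that order overlapped. In immature macrophages Id2 was the leading member at 7.12 ± 1.16 CPM per kb, ahead of Id3 at 1.04 ± 0.115. Smad7 (0.791 ± 0.273) overlapped both Id3 and Smad6 (0.439 ± 0.180), and Id1 came last (0.0593 ± 0.0556). In mature macrophages Id3 (79.1 ± 56.3), Id2 (45.9 ± 12.5) and Id1 (41.1 ± 45.7) overlapped, as did Smad6 (4.48 ± 3.99) and Smad7 (2.55 ± 1.08). The lowest mature library for Id1 (6.35) also lay below the highest for Smad6 (9.05). Id2 exceeded Id3 in all 3 immature libraries and, by a smaller margin, in mature libraries 1 and 3, so the lead of Id3 in the mature mean rests on library 2.

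The mature libraries also differed from each other in an ordered way. On the log2 CPM scale, mature library 2 lay above the mean of its group by 1.93 for Id1, 1.09 for Id3, 1.37 for Smad6 and 0.57 for Smad7, and it lay 0.39 below for Id2. Mature library 1 lay below the mean by 1.91, 0.87, 1.01 and 0.76 for the same 4 genes. Precursor libraries stayed within 0.30 of their group mean for all 5 genes. The summed mitochondrial transcripts of the mature libraries were 886.1, 616.1 and 3780 CPM and their proliferation genes 1246, 1449 and 2226 CPM, so mouse 2 was at the high end of neither. Their immediate early genes summed to 708.1, 573.7 and 642.5 CPM, lowest in mouse 2, and their macrophage markers to 60615, 66395 and 39675 CPM, highest in mouse 2. The part of these in the spread was not tested.

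**Figure D3:**
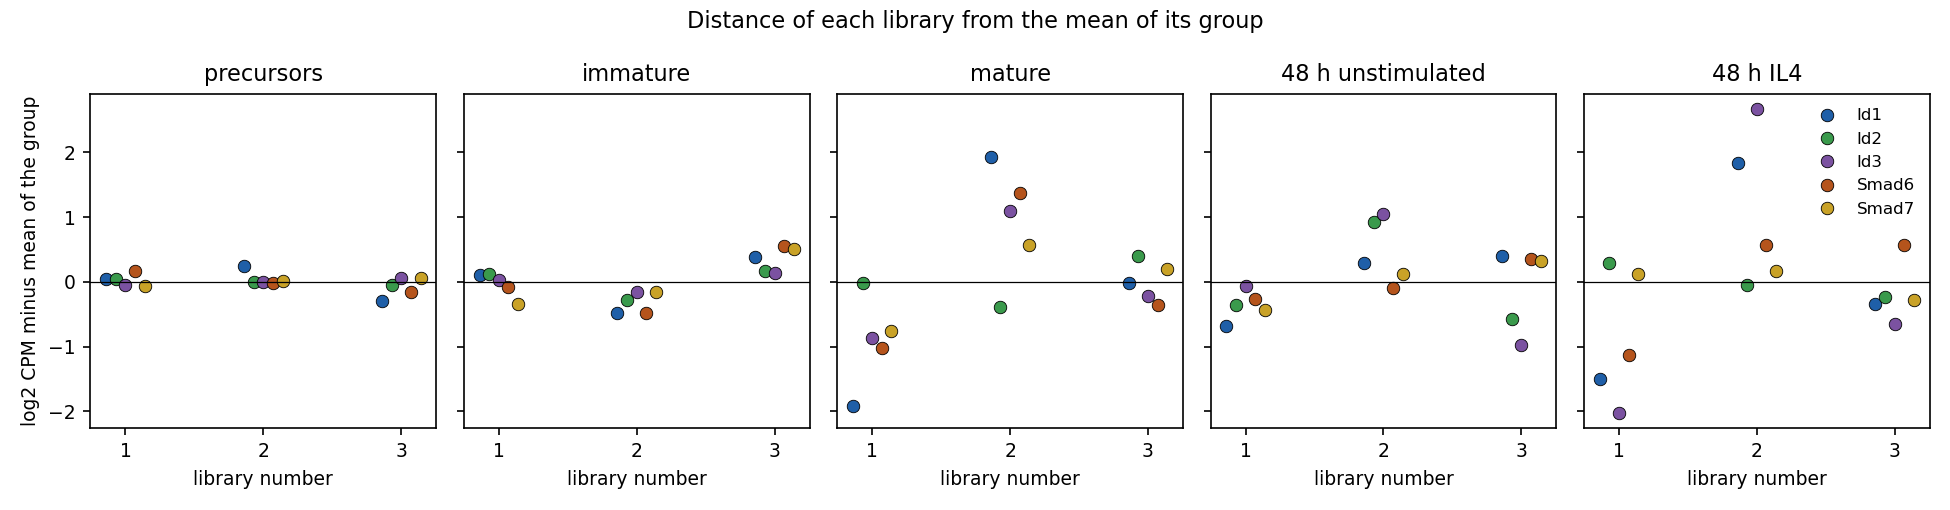
Distance of each library from the mean of its group on the log2 CPM scale (prior count 2), by gene and library number. Precursor libraries lie close to 0, while mature library 2 is high and mature library 1 low for Id1, Id3, Smad6 and Smad7 but not for Id2. In the IL4 group library 2 is high for Id1 and Id3.

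Over the 9 differentiation libraries, the gene whose log2 CPM profile was most like Id1 among 9442 genes was Id3 (Pearson r = 0.992), followed by Smad6 (0.977) and Traf3 (0.976). Id3 was most like Id1, then Suco (0.984) and Actn1 (0.983), and Smad6 was most like Appbp2 (0.992), then Id1 and Klhl2 (0.968). The profile of Id2 was closest to Plaur (0.996), Pilra (0.992) and Chst11 (0.986). Smad7 was closest to Itgal (0.986), Cdc25a (0.986) and Dock8 (0.984), and its r with Id1 was 0.849. These coefficients describe 3 groups of 3 libraries, whose stage, depth and scaling the genes share.

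Markers of other cell types fell together with the 5 genes between precursors and immature macrophages. Dendritic cell markers summed to 147.3 to 171.6, 3.99 to 7.03 and 0.230 to 0.809 CPM in precursors, immature and mature macrophages, and progenitor markers to 269.4 to 333.1, 4.33 to 5.93 and 2.18 to 6.58 CPM. Erythroid and megakaryocyte markers summed to 371.5 to 590.1, 106.9 to 302.3 and 77.8 to 141.9 CPM. Neutrophil markers summed to 117.4 to 169.4 CPM in immature and 0.486 to 1.17 CPM in mature macrophages, and B cell markers to 1.97 to 2.94 and 0 to 0.117 CPM. The dendritic, neutrophil and B cell sums were thus lower still in mature macrophages, where the 5 genes were higher than in immature ones. Stromal markers (Dcn and Lum at 0 in all stages) reached at most 4.14 CPM in precursors and were at 0 in mature libraries. Endothelial markers summed to 84.6 to 164.9, 26.1 to 33.8 and 27.3 to 43.3 CPM across the 3 stages, with Cldn5 at 0 throughout and Emcn and Tek at 0 from the immature stage on. Kdr, of the same list and named after its values were seen, was at 2.32 to 8.59, 6.93 to 8.56 and 15.0 to 31.2 CPM, with mature library 2 highest. The list did not move as 1: from immature to mature macrophages, 1 of 4 tested genes was called higher (Kdr) and 1 lower (Tie1). The other 2 did not pass, among them Vwf, with means of 22.4 CPM in immature and 13.8 CPM in mature macrophages. Of all genes, 7.52% were called higher and 7.38% lower. Proliferation genes (10 genes) summed to 2844 to 2937 CPM in precursors and 396.5 to 1863 in immature macrophages, and mitochondrial transcripts to 3391 to 4450 and 932.1 to 1612 CPM. The part of these in the low point of the immature stage was not tested.

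Smad7 and Id2 rose with IL4 in mature macrophages, in libraries other than those in which the rise of Id1 was seen. The members were still chosen with earlier results of these data known. Smad7 was at 3.98, 6.17 and 7.14 CPM without IL4 and at 29.7, 30.7 and 22.4 CPM with it. Every IL4 library exceeded every unstimulated library. The log2 fold change was 2.27 ± 0.27, or 4.81-fold (edgeR quasi-likelihood test, adjusted p = 0.000144), and the adjusted p lay between 2.63e-09 and 0.00197 over 12 alternatives.

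Id2 was at 17.1, 42.8 and 14.8 CPM without IL4 and at 71.4, 56.5 and 49.6 CPM with it. The groups did not overlap, although unstimulated library 2 came close to the lowest IL4 library. The log2 fold change was 1.30 ± 0.35, or 2.46-fold (edgeR, adjusted p = 0.0239). The call was lost without unstimulated library 1 (1.08, adjusted p = 0.0689) or unstimulated library 3 (1.02, adjusted p = 0.0832). Over 12 alternatives the adjusted p lay between 0.000376 (edgeR with the mouse number as a block) and 0.0832. Against the background, 10.5% of the 8936 genes tested were called higher, 20.8% in either direction, and 18.4% were higher without overlap. In the authors' deposited list of 1863 genes for this comparison, the FDR was 0.00577 for Id2 and 4.03e-12 for Smad7, and Id1, Id3 and Smad6 were not listed.

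Id1 and Id3 did not pass the test with IL4, and 1 library set their values. Id1 was at 5.15, 10.7 and 11.6 CPM without IL4 and at 1.60, 21.5 and 4.27 CPM with it, from 6, 65 and 13 reads. Its log2 fold change was -0.02 ± 0.68 (edgeR, adjusted p = 0.989), and -1.64 without IL4 library 2 (adjusted p = 0.0536). Id3 was at 3.28, 7.82 and 1.48 CPM against 0.535, 28.4 and 2.30 CPM, from 2, 86 and 7 reads in the IL4 libraries. The log2 fold change was 1.40 ± 1.02 (edgeR, adjusted p = 0.410), and without IL4 library 2 its direction turned (-1.48, adjusted p = 0.272). Matched by the mouse number of the titles, Id1 was higher with IL4 in mouse 2 and lower in mouse 1 and mouse 3. Id3 was higher with IL4 in mouse 2 and lower in mouse 1. In mouse 3, Id3 was at 1.48 CPM (6 reads) without and 2.30 CPM (7 reads) with IL4.

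Smad6 was near the limit of detection in the IL4 table. The unstimulated libraries held 6, 4 and 10 reads (1.41, 1.65 and 2.46 CPM) and the IL4 libraries 0, 4 and 4 reads (0, 1.32 and 1.31 CPM). For the library with 0 reads, 3 reads would be 0.802 CPM. The gene did not pass the filter on low counts, and without a filter its log2 fold change was -1.14 ± 0.70 (edgeR, adjusted p = 0.334). The 3 IL4 libraries lay below the 3 unstimulated ones, but at 0 to 10 reads a library the difference did not pass the test.

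Per kb, Id2 led both groups of the IL4 table, with 10.2 ± 6.38 CPM per kb (SD, n = 3) without and 24.3 ± 4.56 with IL4. Id1 followed, with libraries from 4.44 to 9.97 without and from 1.38 to 18.5 with IL4, and overlapped Id2 only in the unstimulated group. Id3 was at 2.34 ± 1.82 and 5.82 ± 8.72, Smad7 at 1.27 ± 0.358 and 6.10 ± 1.01, and Smad6 at 0.573 ± 0.173 and 0.274 ± 0.237. Smad7 overlapped Id3 in both groups, and with IL4 Id1, Smad7 and Id3 overlapped each other.

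Other measures moved with IL4 as well. Immediate early genes summed to 295.3 to 320.0 CPM without and 1952 to 2205 CPM with IL4, most of it Atf3, and 6 of 7 tested were called higher. Proliferation genes summed to 287.6 to 445.5 CPM without and 94.9 to 222.3 CPM with IL4. The macrophage markers, of which the IL4 table holds 7 of 8, summed to 43139 to 58759 and 20877 to 22183 CPM. Most of it was Lyz2 (means of 42568 CPM without and 15480 CPM with IL4). Of 6 tested, 4 were called lower and 2 did not pass, among them Cd68 (means of 3021 and 3028 CPM). Vwf, of the endothelial list, rose by 5.10 ± 0.40 on the log2 scale, with Cldn5, Emcn, Tek and Tie1 at 0 in all 6 libraries. Kdr, of that list, was at 15.7 to 18.5 CPM without and 8.82 to 13.5 CPM with IL4 and did not pass (edgeR, adjusted p = 0.148). The part of these in the rise of Smad7 and Id2 was not tested.

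The other genes of the pathway were followed in 7 lists of 100 genes, of which 56 were tested in the differentiation table. From precursors to immature macrophages, 10 were called higher and 17 lower, and 29 did not pass (edgeR, adjusted p under 0.05). Limma on the deposited log2 RPM called 12 higher and 13 lower, and over all genes 3662 higher and 2969 lower, where edgeR called 3009 and 3559. The median log2 fold change was -0.26, against -0.07 for all genes tested. The share called, 27 of 56, is near the 49.2% of all genes.

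Among the ligands, 8 of 28 were tested, with 2 called higher and 2 lower in immature macrophages, beside 22.5% and 26.6% of all genes. Gdf15, a distant family member induced by cell stress, rose by 5.49 ± 0.41 on the log2 scale (adjusted p = 4.87e-06). Inhba, the subunit of activin A, was at 6.25, 7.46 and 7.46 CPM in precursors and had 1 read in the 3 immature libraries together. Gdf11 had 1 read in the immature libraries together and 2.33 CPM on average in precursors. Tgfb1, the most abundant ligand, did not pass. Among named BMP ligands picked after their values were seen, Bmp4 had 0 reads in all 15 libraries, and Bmp2 stayed at or below 3.06 CPM in the differentiation table.

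Among 13 tested receptors and co-receptors, 6 were called higher and 2 lower in immature macrophages, beside 22.5% and 26.6% of all genes. Bmpr1a, a type I BMP receptor, fell from 8.81, 7.99 and 11.4 CPM to 0.236, 0.205 and 0.383 CPM (log2 fold change -5.09 ± 0.43, adjusted p = 8.83e-06). It stood at 0.890, 1.29 and 1.61 CPM in the mature libraries, between the other 2 stages. Acvrl1, the type I receptor for BMP9 in endothelium, went the other way, from 18.7, 16.6 and 20.2 to 51.6, 52.8 and 44.3 CPM (1.42 ± 0.17, adjusted p = 8.00e-05). Neo1, a co-receptor partner of the RGM proteins, rose by 4.38. Tgfbr2, the type II TGF-beta receptor and the most abundant of the list, rose by 1.36 to 302.3 to 430.1 CPM and stood at 630.1 to 1054 CPM in mature macrophages.

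Of 5 tested signalling SMADs, 1 was called in immature macrophages, beside 49.2% of all genes. Smad3, a receptor SMAD of the TGF-beta branch, was at 15.8, 15.2 and 14.6 CPM against 27.0, 25.2 and 28.6 CPM in precursors (-0.82 ± 0.18, adjusted p = 0.00364). Smad1, a receptor SMAD of the BMP branch, was at 17.0 to 20.7 CPM in precursors, at most 26.2 CPM in immature and 35.6 to 38.4 CPM in mature macrophages. Smad4, shared by both branches, stayed between 56.3 and 82.1 CPM in all 9 libraries.

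Among 13 tested intracellular regulators, 4 were lower in immature macrophages and none higher, beside 26.6% of all genes called lower. Pmepa1, a membrane protein that sequesters receptor SMADs and is itself a TGF-beta target, was at 2.83, 7.02 and 4.01 CPM in precursors, had 1 read in the immature libraries together, and was at 0.890, 9.01 and 4.74 CPM in mature libraries. Mouse 2 was again the highest mature library, as for Id1, Id3, Smad6 and Smad7. Skil, a SMAD corepressor, stood at 162.2 to 183.6 CPM in precursors, 46.8 to 68.2 CPM in immature and 86.3, 278.5 and 80.3 CPM in mature macrophages, with the same library on top. Tgif2, another corepressor, fell by 3.44 and had 0 reads in mature libraries.

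The other lists held members that moved apart. The counts here stand beside 22.5% of all genes called higher and 26.6% called lower. Of 7 tested SMAD targets, 2 were called higher and 4 lower in immature macrophages. Thbs1, which activates latent TGF-beta, fell from 775.1 to 1261 CPM in precursors to 53.0 to 168.9 CPM and was at 0.351 to 1.45 CPM in mature macrophages. Cdkn2b, a cell cycle inhibitor, was at most 0.202, 1.15 and 23.9 CPM across the stages. Atoh8 had 1 read in the immature libraries together and 1.99 CPM on average in precursors. Of 5 tested extracellular binders, 2 were lower, Ltbp1 (-5.62 ± 0.71) and Ltbp2 (-2.97 ± 0.87), both latent TGF-beta binding proteins. Of 5 tested bHLH partners, Tcf3, which codes for the E proteins E12 and E47, and Tal1 were lower (-1.57 ± 0.32 and -1.29 ± 0.35). Id4, the remaining Id gene, had 0 reads in all 15 libraries.

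From immature to mature macrophages, 10 of the 56 pathway genes were called higher and 5 lower, where 14.9% of all genes were called. The median log2 fold change was 0.20, against 0 for all genes. Pmepa1 (levels above), Ltbp2 (6.90 ± 0.78), Cdkn2b (4.66 ± 0.49) and Bmpr1a (2.20 ± 0.47) were among those higher, and Thbs1 (-6.82 ± 0.59) among those lower. These values share the mature libraries with the choice of the set. The count fell to 7 without immature library 2 and rose to 20 without mature library 3. Between mature macrophages and precursors, 15 pathway genes were called higher, 15 lower and 26 did not pass, where 25.8% of all genes were called higher and 54.3% in either direction.

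**Figure D4:**
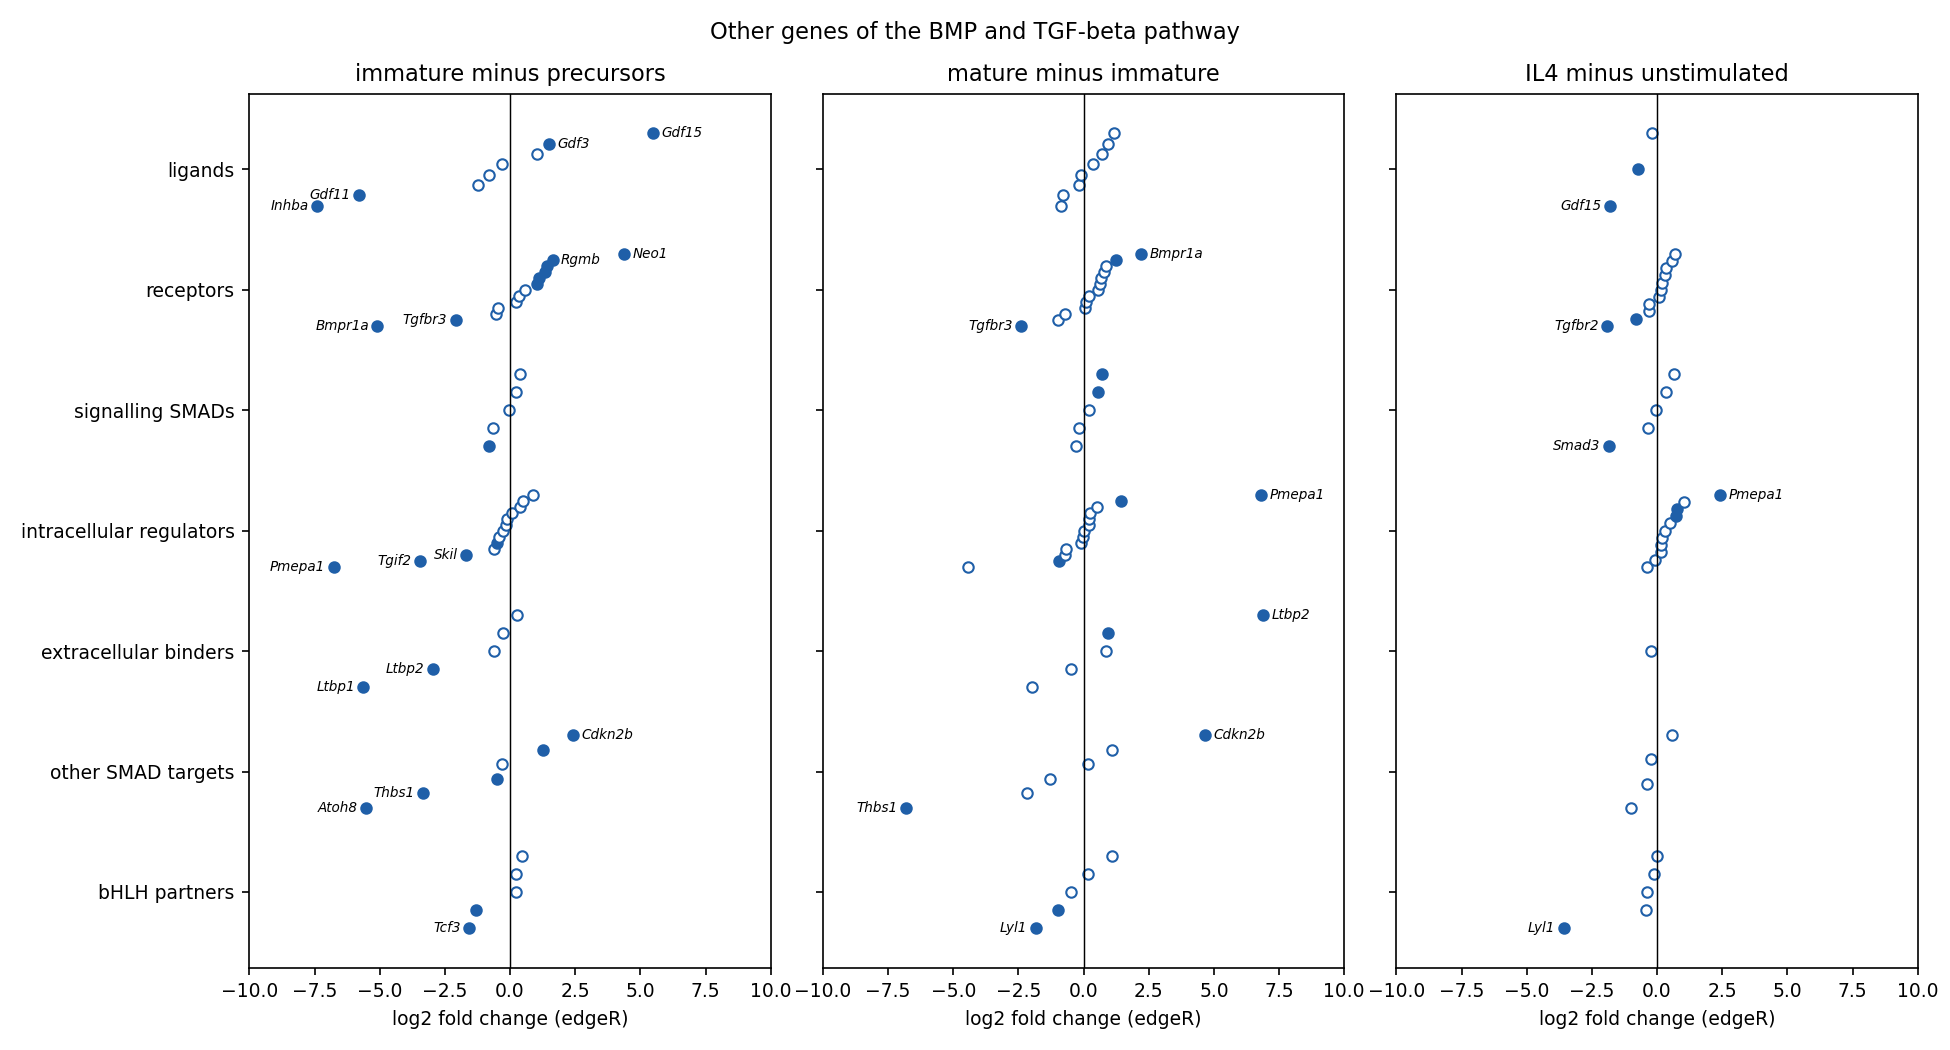
Log2 fold change of tested genes of 7 pathway lists in 3 comparisons, from edgeR fits, without 1 gene that is not reported here. Filled points passed an adjusted p of 0.05 and open points did not; names are printed for filled points beyond 1.5, of which Inhba, Gdf11, Pmepa1 and Atoh8 had 1 read in the immature libraries, so their size depends on the fit. Pmepa1 lies far left in immature macrophages and right of 0 in the other 2 panels, while most signalling SMADs lie near 0.

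With IL4, 4 of 41 tested pathway genes were called higher and 6 lower, beside 10.5% and 10.3% of all genes tested, and the median was 0.00 against 0.01 for all genes. With the mouse number as a block, 17 were called in place of 10, and 2883 of all 8936 genes in place of 1855. Higher were 3 of 11 intracellular regulators, namely Pmepa1, Smurf1 and Tgif1. Pmepa1 was at 2.34, 1.65 and 1.48 CPM without and 15.8, 8.26 and 5.92 CPM with IL4 (2.43 ± 0.43, adjusted p = 0.00226). Smurf1, a ubiquitin ligase that partners with the inhibitory SMADs, differed by 0.74 ± 0.20 and the corepressor Tgif1 by 0.77 ± 0.23.

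Lower with IL4 were Tgfbr2, at 374.5 to 501.0 CPM without and 80.2 to 155.8 CPM with it (-1.91 ± 0.25, adjusted p = 0.000275), and the co-receptor Rgmb (-0.81 ± 0.22). The ligands Tgfb1 (-0.72 ± 0.20) and Gdf15 (-1.80 ± 0.35) were lower, as was Smad3 (-1.85, from 16.0 to 17.7 CPM to 3.63 to 6.25 CPM). Among the bHLH partners, Lyl1, a factor related to Tal1, fell from 58.8, 53.5 and 65.0 CPM to 1.60, 5.29 and 8.22 CPM (-3.59 ± 0.38, adjusted p = 7.49e-05). The rise of Smad7 and Pmepa1 with IL4 stood beside lower Tgfbr2, Tgfb1 and Smad3. Most of those lists did not move: 9 of 11 tested receptors and co-receptors and 4 of 5 signalling SMADs did not pass. A link between these changes was not tested.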

How the data were processed

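Per the labels' protocols, column-purified, DNase-treated RNA (1 µg total RNA per library) was sequenced by Ion Torrent. HISAT2 2.0.5, edgeR (no version) and the builds GRCm38.p6 and GRCm39.p6 are named per the submitters' processing notes. How reads were assigned to genes, and whether strand was used, is not given in the sources used here. Deposited by the authors were read counts per gene in 2 tables, log2 RPM for the same genes, and lists of genes with an FDR (adjusted p-value).

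Counts were fitted per table with edgeR 4.0.16 in R 4.3.3 (TMM scaling, filterByExpr with a minimum count of 10, glmQLFit and glmQLFTest, Benjamini-Hochberg adjustment over all genes tested, called under 0.05), which kept 13359 of 34245 and 8936 of 25965 genes. The 3 stages shared 1 fit. CPM use TMM-scaled totals. The script was tested on simulated counts. The members and gene lists were chosen with earlier results of these data known. Named genes were the 5 members, up to 3 called genes with the lowest p per pathway list and comparison with the list's most abundant gene, the 3 genes most correlated with each member (log2 CPM, prior count 2, at least 10 CPM in the highest group mean, no predicted gene names), and marker genes; 1 gene that the rule selects is not reported here, though list counts include it. Exon lengths and overlaps come from GENCODE M21. Promoter sequences come from a set built on RefSeq (GRCm38.p6), and that set had no entry for Id1 and Smad7.

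Mice are numbered 1 to 3 in the titles of every group, so libraries pair by label, although the IL4 table's column names carry other mouse numbers. Deviations from group means correlated at -0.129 to 0.165 between same-numbered differentiation libraries (-0.128 to 0.139 between others) and at 0.175 to 0.591 in the IL4 table (-0.487 to 0.247 between others). Alternatives were DESeq2 1.42.0, RLE scaling, limma 3.58.1 on the log2 RPM, other filters, a mouse block, fits on 6 libraries and leaving out each library. Precision is set by the reads per library given with the results.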

Additional observations from a re-analysis of the deposited data

How the results depend on the processing

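All 5 genes kept the direction of their fall from precursors to immature macrophages and of their rise to mature macrophages in every alternative run, and Id2, Id3, Smad6 and Smad7 kept an adjusted p under 0.05 in the former. With the mouse number as a replicate block, 2883 genes were called with IL4 in place of 1855 and 17 pathway genes in place of 10; the block changed no call of a member. Fitted on only the 6 libraries compared, mature against immature macrophages gave 1245 called genes in place of 1991 and 8 pathway genes in place of 15. Leaving out 1 library moved these counts to between 1007 (without immature library 2) and 2702 genes, 1262 without immature library 1, and to between 7 and 20 pathway genes. The rise of Id2 with IL4 ranged from 1.02 to 1.90 on the log2 scale when 1 library was left out, and its call was lost without unstimulated library 1 or 3. Limma on the log2 RPM moved the median log2 fold change of all genes from immature against precursors from -0.07 to 0.10. The uncalled Id3 difference with IL4 was -0.03 by limma on the log2 RPM. Depth limits Smad6 in the IL4 table and Id1 in immature macrophages, which rests on 2 reads.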
